A study of Sus scrofa with 20 samples.

Results

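A set of genes better known from joint and tendon than from fat were followed through the backfat of 20 pigs: COMP (locus XLOC_017492, ENSSSCG00000013916), CILP2 (XLOC_017487, ENSSSCG00000013934) and ANGPTL7 (XLOC_027033, ENSSSCG00000003414). They are 3 of the 23483 loci in the deposited gene tables, found by their Ensembl identifiers, and all 3 passed the filter on low counts that kept 21587 loci for testing. They were selected on measured values of these same libraries: the spread of CILP2 between animals and the slope of ANGPTL7 on age were known when the 3 were put together. Spread, age slopes and correlations with the 3 genes are therefore given as descriptions without a test, and the difference between the sexes is tested.

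Backfat, the fat layer beneath the skin of the back, came from 10 female and 10 castrated male Italian Large White pigs, 1 library of polyadenylated RNA per animal. The animals shared housing and diet, weighed 150 to 160 kg and were 233 to 250 days old at slaughter. All the males were castrated, so sex and castration cannot be told apart. Libraries carry the labelled sex and a number that follows deposit order and pairs no animals.

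COMP, cartilage oligomeric matrix protein or thrombospondin 5, is a secreted protein that binds collagens and helps to assemble their fibrils, and it is abundant in cartilage, tendon and ligament. CILP2 is a secreted matrix protein related to the cartilage intermediate layer protein CILP. ANGPTL7 is a secreted protein of the angiopoietin-like family, known best from the eye.

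Total counts ran from 25754778 to 51248122 per library. The unnamed locus XLOC_042132 was at 547 to 1233 CPM (counts scaled to the effective library size) in 9 females, against 0 to 1.87 CPM in 9 castrated males. The library labelled female 10 had 0.409 CPM of it and the library labelled castrated male 10 had 989 CPM, so these libraries go against their labels. They are kept as labelled, and the sex differences are also given without them. Adipocyte genes were high on average. SCD, a desaturase of fat synthesis, had a mean of 2545 FPKM (fragments scaled to transcript length and to the fragments mapped). It ran from 41.5 FPKM in castrated male 1 to 4686 FPKM in female 4. PLIN1, the coat protein of the fat droplet, had a mean of 433 FPKM and was lowest in female 3 at 245 FPKM. Summed adipocyte markers were lowest in castrated male 1, at 1614 FPKM against a castrated male median of 5374 FPKM. Of 14 skeletal muscle genes 3 had a locus, with means of 0.303 FPKM for TNNC2 (0 to 3 counts), 0.545 FPKM for ACTA1 and 1.10 FPKM for NEB.

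Per transcript length, COMP was the most abundant of the 3 genes, at a mean of 14.0 ± 13.5 FPKM (SD, n = 20). CILP2 averaged 2.62 ± 2.63 FPKM and ANGPTL7 0.914 ± 1.80 FPKM. Each SD was close to or above its mean, and the ranges of the 3 genes over animals overlapped. In tissue RNA, fewer cells of a type and less RNA per cell cannot be told apart.

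COMP ran from 0.409 CPM (11 counts) in the library labelled female 10 to 123.9 CPM (6186 counts) in female 1, a 303-fold range. In the females the lowest, median and highest were 0.409, 45.8 and 123.9 CPM, and the 9 females other than the library labelled female 10 stood at 12.4 CPM or above. In the castrated males the lowest, median and highest were 0.966 (castrated male 8), 18.7 and 80.2 CPM (the library labelled castrated male 10). Beside castrated male 8, castrated males 4, 6 and 1 stood at 1.22, 2.75 and 5.91 CPM, and the other 6 stood at 11.3 CPM or above. The sexes overlapped over most of the range. By FPKM the order of the libraries was nearly the same (Spearman rho 0.998), except that the library labelled castrated male 10 came first at 46.6 FPKM, ahead of female 1 at 45.0 FPKM.

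CILP2 was clearly expressed in most animals and almost undetected in 5. In the females it ran from 0.0743 CPM in the library labelled female 10 through a median of 16.3 to 30.7 CPM in female 1. In the castrated males it ran from 0.0268 CPM in castrated male 8 through a median of 2.64 to 29.1 CPM in castrated male 7. Castrated males 1, 4, 6 and 8 and the library labelled female 10 had 1 to 6 counts, and the other 15 libraries had 59 to 1531 counts. The exact Poisson 95% intervals, which cover counting error only, ran from 0.0523 to 0.310 CPM in castrated male 1 and from 0.000679 to 0.149 CPM in castrated male 8, so the order among these 5 libraries was not detectable at this depth. The next library up, castrated male 3, stood at 1.53 CPM (1.16 to 1.97 CPM).

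ANGPTL7 was low in most animals and by far the highest in 1. In the females it ran from 0.517 CPM in female 7 through a median of 1.05 to 18.01 CPM in female 2, where it had 649 counts. In the castrated males it ran from 0.566 CPM in the library labelled castrated male 10 through a median of 0.884 to 3.02 CPM in castrated male 9. Female 5 (4.36 CPM), castrated male 9 and castrated male 5 (2.06 CPM) came next after female 2, and the remaining 16 libraries lay at 1.83 CPM or below. The 5 libraries with almost no CILP2 stood at 0.657 to 1.12 CPM of ANGPTL7, inside the range of the others.

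**Figure D1:**
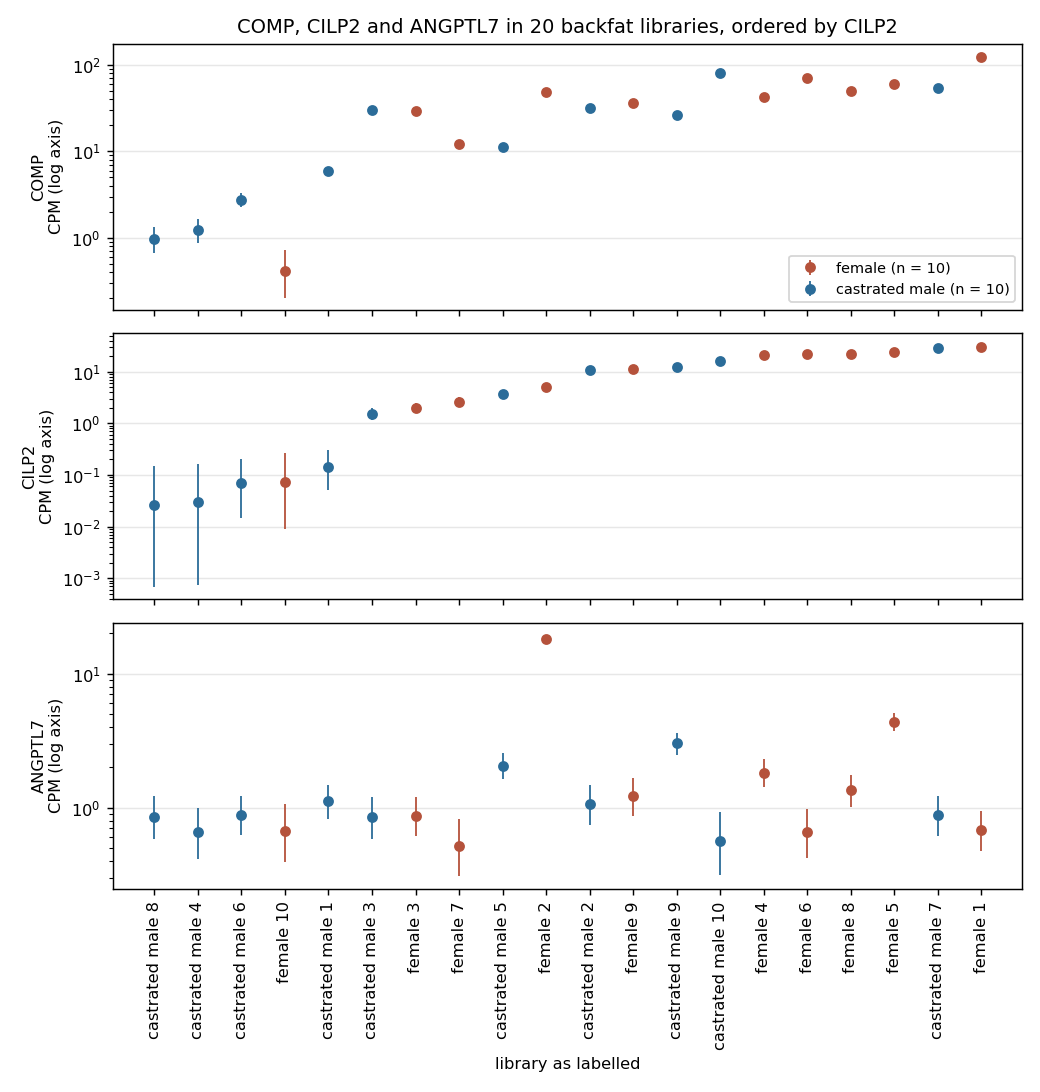
CPM of COMP, CILP2 and ANGPTL7 (log axes) in each of the 20 libraries, ordered from the lowest to the highest CILP2, with females in red and castrated males in blue. Points are single libraries and bars are exact Poisson 95% intervals of the count. COMP falls with CILP2 at the left, where the 5 libraries with 1 to 6 CILP2 counts sit, and ANGPTL7 stands out in female 2 at 18.01 CPM.

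The spread between animals was among the largest in the tissue for CILP2 and COMP. After the mean of each sex was subtracted, log2 CPM of CILP2 had an SD of 2.99 (the residual SD), rank 9 of 15770 loci with a mean of at least 1 CPM. It was 2.25 for COMP (rank 38) and 1.19 for ANGPTL7 (rank 380), against a median of 0.351 over those loci. Over the 15 libraries with at least 10 CILP2 counts, a selection made after the values were seen, the SD was 1.51 for CILP2 and 0.933 for COMP. Without female 2 the SD of ANGPTL7 was 0.814.

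COMP and CILP2 varied together over the animals. On the same sex-centred log2 scale Pearson r was 0.921 and Spearman rho 0.908 over 20 libraries, with r at 0.929 within the females and 0.936 within the castrated males (n = 10 each). Over the 15 libraries with at least 10 CILP2 counts r was 0.701 and rho 0.804. Among those 15 libraries the ratio of COMP to CILP2 in FPKM ran from 3.05 in castrated male 7 through a median of 5.03 to 31.6 in castrated male 3. The points share tissue, protocol and scaling.

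ANGPTL7 followed neither of them. Its r was 0.22 with COMP (rho 0.066) and 0.20 with CILP2 (rho 0.217) over 20 libraries. Over the 15 libraries with at least 10 CILP2 counts the values were -0.07 and -0.04. Female 2, by far the highest library for ANGPTL7, stood at 49.4 CPM of COMP, near the female median of 45.8 CPM, and at 4.97 CPM of CILP2, below the female median of 16.3 CPM.

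**Figure D2:**
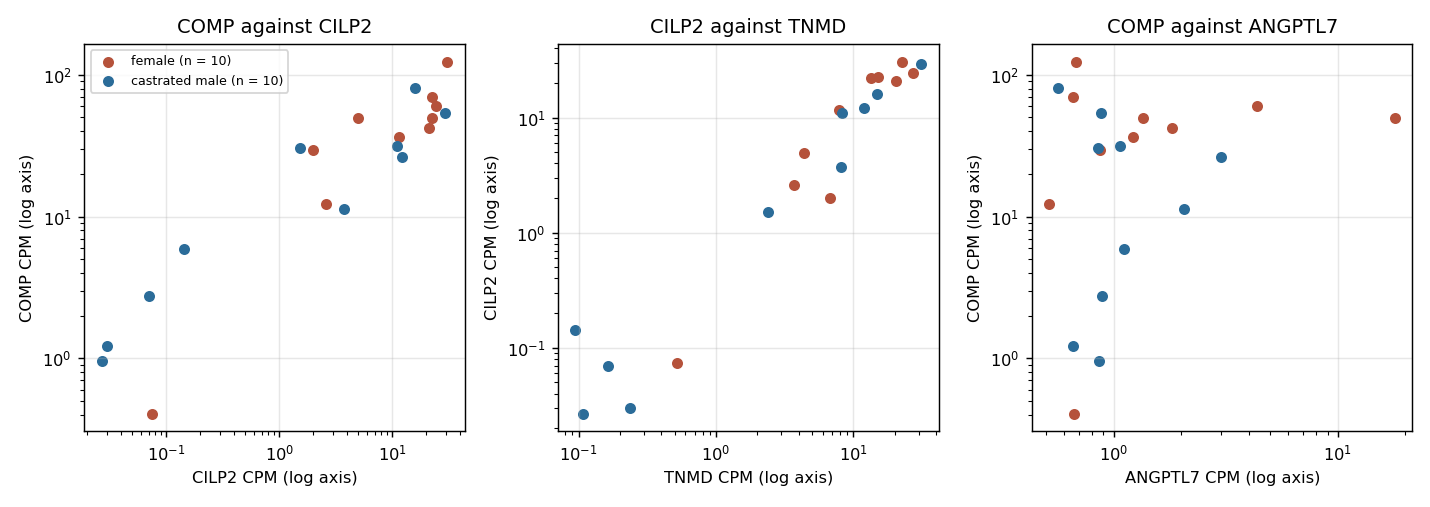
Each point is 1 library, females in red and castrated males in blue, and all axes are CPM on log scales. COMP against CILP2 (r 0.921) and CILP2 against TNMD (r 0.97) lie along a line with a gap between the 5 lowest libraries and the rest, and COMP against ANGPTL7 (r 0.22) shows no such line.

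Genes of the matrix were among the loci whose levels followed COMP most closely. Among 15769 loci with a mean of at least 1 CPM, 16 had an r of at least 0.8 with COMP (0.101%). The 6 highest with a symbol were ACAN (aggrecan, the large proteoglycan of cartilage, r 0.93), ANGPTL5 (0.92), LEPR (the leptin receptor, 0.92), CILP2, FMOD (fibromodulin, a collagen-binding proteoglycan rich in tendon, 0.90) and C1QTNF3 (a secreted factor of the C1q and TNF family made in cartilage, 0.86). Over the 15 libraries with at least 10 CILP2 counts these r were 0.86, 0.61, 0.79, 0.70, 0.70 and 0.45. There 11 loci reached 0.8, and 2 of them were among the 16. The lowest r were CCDC88A (an actin-binding protein) at -0.67, SCRN3 at -0.65 and TAF6L (a subunit of a histone acetyltransferase complex) at -0.64.

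CILP2 kept similar company. Of the 15769 loci, 11 had an r of at least 0.8 with CILP2 (0.0698%), led by TNMD (tenomodulin, a membrane protein of mature tendon cells) at 0.97. ANGPTL5 and LEPR at 0.92, SHISA2 (an inhibitor of WNT and FGF receptor transport) at 0.92 and COL11A2 (a chain of the cartilage collagen XI) at 0.91 followed, with COMP among them. Over the 15 libraries TNMD stayed at 0.91 and COL11A2 at 0.84, while SHISA2 stood at 0.56, and 6 of the 10 loci that reached 0.8 there were among the 11. PHEX (a peptidase of bone cells) had the lowest r at -0.77, which was -0.30 over the 15 libraries, followed by CCDC88A at -0.71 and VCAM1 (an adhesion molecule for leukocytes) at -0.70.

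The same 5 libraries were lowest for several of these genes. TNMD stood at 0.0950 to 0.520 CPM in the 5 libraries with 1 to 6 CILP2 counts and at 2.40 to 31.3 CPM in the others. SHISA2 stood at 0.163 to 0.451 against 1.37 to 7.29 CPM, and ANGPTL5 at 0.0805 to 0.641 against 1.21 to 6.41 CPM. ACAN (0.241 to 0.838 against 0.805 to 11.1 CPM) and COL11A2 (0.116 to 0.510 against 0.388 to 11.9 CPM) overlapped narrowly. FMOD, an abundant gene, was lower there without being absent, at 66.7 to 137.7 against 134.6 to 367.9 CPM. These ranges describe the libraries in the order that CILP2 gives, and no test was made of them.

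Cartilage matrix genes as a list followed CILP2 and COMP, with exceptions. Of 17 genes listed 7 had a locus, and their median r was 0.85 with CILP2, 0.68 with COMP and 0.23 with ANGPTL7, against medians of -0.00, -0.00 and 0.01 over all 21587 loci tested. The median over the 15 libraries with at least 10 CILP2 counts was 0.54 with CILP2 and 0.43 with COMP, against 0.00 and 0.01 over all loci. With CILP2, 4 of the 7 reached 0.8: COL11A2 at 0.91, COL11A1 (another collagen XI chain) at 0.88, ACAN at 0.87 and COL2A1 (the main collagen of cartilage) at 0.85. CHAD (chondroadherin, a leucine-rich cartilage protein) stood at 0.51 and MATN3 (matrilin 3) at 0.23, and CILP, the nearest relative of CILP2 on the list, at -0.09. In the 15 libraries COL11A1 (0.89), COL11A2 (0.84) and COL2A1 (0.84) were above 0.8 with CILP2, ACAN stood at 0.54 and MATN3 at -0.74. Levels were low for the most cartilage-restricted genes, with means of 0.362 FPKM for COL2A1, 0.429 FPKM for ACAN and 0.848 FPKM for COL11A2, against 2.60 FPKM for COL11A1, 6.37 FPKM for CHAD and 31.6 FPKM for CILP. COL3A1, the fibrillar collagen most abundant among the listed genes, averaged 4867 FPKM.

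COL2A1 had 9 to 29 counts in the 5 libraries with 1 to 6 CILP2 counts and 14 to 253 counts in the others, so its sets overlapped. COL11A1 stood at 3.66 to 7.61 CPM in those 5 libraries and at 9.18 to 38.2 CPM in the others, without overlap. The regulators of cartilage cells did not follow this pattern: 3 of 10 had a locus, and SOX9, the factor that drives cartilage differentiation, averaged 0.147 FPKM with an r of 0.05 with CILP2. SOX5, its partner, averaged 1.42 FPKM (r -0.06), and FGFR3, a growth factor receptor of growth cartilage, 0.293 FPKM (r -0.06).

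Tendon and ligament genes divided. Of 16 genes 13 had a locus, with a median r of 0.31 with COMP, 0.21 with CILP2 and 0.17 with ANGPTL7. Over the 15 libraries with at least 10 CILP2 counts the median was 0.31 with COMP and -0.11 with CILP2, and without female 2 it was 0.01 with ANGPTL7. TNMD (mean 8.97 FPKM) had an r of 0.86 with COMP, FMOD (75.3 FPKM) 0.90 and KERA (keratocan, 14.5 FPKM) 0.61. These r were 0.60, 0.70 and 0.14 over the 15 libraries. The most abundant members followed COMP weakly or ran the other way: DCN (decorin, 1197 FPKM) at 0.31, EGR1 (an immediate early factor, 310 FPKM) at -0.20, BGN (biglycan, 264 FPKM) at 0.39 and LUM (lumican, 189 FPKM) at -0.30. MKX, a transcription factor of tendon cells, averaged 0.895 FPKM with an r of 0.27 with COMP.

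The families and partners of the 3 genes did not follow them as lists, ANGPTL5 with COMP and CILP2 excepted. Of the thrombospondins, relatives of COMP, 3 of 4 had a locus: THBS1 (195 FPKM) had an r of 0.01 with COMP, THBS2 (142 FPKM) -0.03 and THBS3 (12.6 FPKM) 0.45. Of 7 other angiopoietin-like genes 5 had a locus and 4 were tested. Of these ANGPTL4, an inhibitor of lipoprotein lipase (212 FPKM), had the highest r with ANGPTL7 at 0.46, ahead of ANGPTL5 (1.31 FPKM) at 0.24, ANGPTL1 (23.2 FPKM) at 0.09 and ANGPTL2 (111 FPKM) at -0.20. Without female 2 the order turned, with ANGPTL5 at 0.33 and ANGPTL4 at 0.18. Among 11 tested matrix partners of COMP the median r with COMP was 0.05, with COL3A1 at 0.00, COL1A2 (682 FPKM) at 0.21, FN1 (fibronectin, 107 FPKM) at 0.00, MATN2 (67.9 FPKM) at 0.06, ITGB3 at 0.29 and ITGA5 at 0.28. Among 12 tested genes of the TGF-beta axis it was 0.20, with CCN2 (129 FPKM) at -0.06, TGFBI (87.0 FPKM) at 0.48, TGFBR2 (74.8 FPKM) at 0.15 and the receptor TGFBR3 at 0.43. The 10 tested fibroblast and matrix genes had a median r of 0.05 with COMP and -0.04 with CILP2. COL6A3 (717 FPKM) had r of -0.21 and -0.33, while PI16, a marker of perivascular fibroblasts, reached 0.65 with COMP. Over the 15 libraries with at least 10 CILP2 counts, r with COMP was 0.23 for PI16, 0.12 for TGFBR3, 0.17 for THBS3 and 0.51 for TGFBI. The median there was 0.17 for the matrix partners, 0.11 for the TGF-beta axis and 0.17 for fibroblast and matrix genes.

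**Figure D3:**
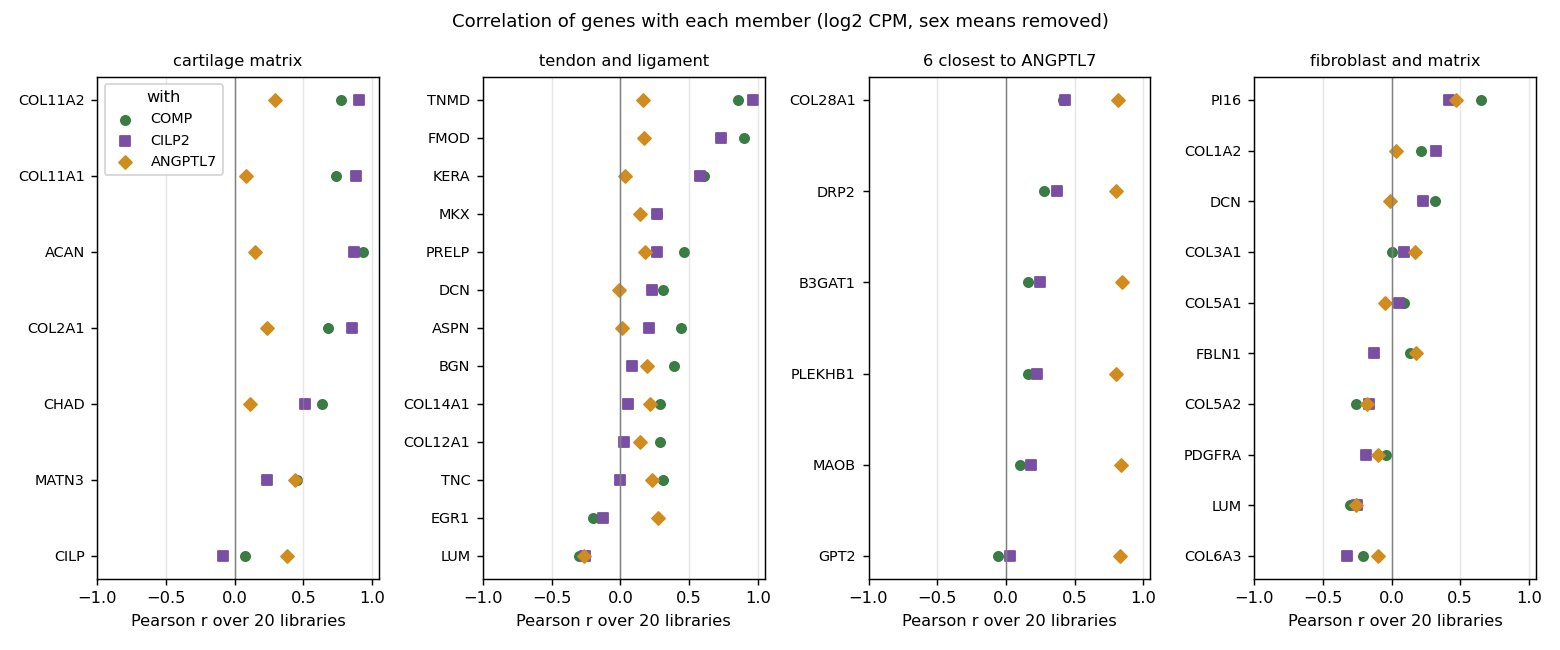
Pearson r over 20 libraries (log2 CPM, sex means removed) of each tested gene of 3 lists, and of the 6 loci closest to ANGPTL7, with COMP (circles), CILP2 (squares) and ANGPTL7 (diamonds). COMP and CILP2 lie to the right for COL11A2, COL11A1, ACAN, COL2A1, TNMD and FMOD, and ANGPTL7 lies to the right for the 6 loci chosen for their likeness to it.

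The r of ANGPTL7 with the cartilage and tendon genes had medians of 0.23 and 0.17, against 0.01 over all loci tested. Without female 2 these medians were 0.18 and 0.01, against 0.00 over all loci. Over 20 libraries the highest r of ANGPTL7 among the 7 cartilage genes was 0.44 (MATN3), and r was 0.17 with both TNMD and FMOD. Without female 2 the highest was 0.51 (COL11A2), MATN3 stood at 0.14 and TNMD at 0.36. The 6 loci with a symbol that followed it most closely were B3GAT1 (an enzyme that makes the HNK-1 sugar epitope of neural adhesion molecules, r 0.85), MAOB (a monoamine oxidase, 0.84), GPT2 (a mitochondrial alanine aminotransferase, 0.83), COL28A1 (a minor collagen known from peripheral nerve, 0.82), DRP2 (a dystrophin-related protein of myelinating Schwann cells, 0.80) and PLEKHB1 (0.80). Of the 15769 loci, 8 reached 0.8 (0.0507%), and none of the 6 was among the 6 closest to COMP or to CILP2. The 6 were picked for the highest r, so their r cannot be weighed against that of a fixed list. The lowest r were COL5A3 at -0.69 and CUL1 at -0.64, symbols that 2 loci each bear, and TRAPPC12 at -0.67.

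This likeness was smaller without female 2. With that library left out, 0 loci reached 0.8, and r stood at 0.73 for B3GAT1, 0.76 for MAOB, 0.70 for GPT2, 0.65 for COL28A1, 0.67 for DRP2 and 0.67 for PLEKHB1. DRP2 had 961 counts in female 2 and 4 to 275 counts in the other 19 libraries. PLEKHB1 had 848 counts there against 10 to 321, and B3GAT1 268 against 6 to 123.

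The libraries next in ANGPTL7 were high for these genes too. After female 2, ANGPTL7 was highest in female 5 (1.96 FPKM) and castrated male 9 (1.33 FPKM). DRP2 stood at 3.43 FPKM in female 2, 0.975 FPKM in female 5 and 0.543 FPKM in castrated male 9, against a median of 0.0723 FPKM over the 19 libraries other than female 2. PLEKHB1 stood at 11.5, 3.11 and 4.53 FPKM in the same libraries, against a median of 0.314 FPKM. Female 7, the library lowest in ANGPTL7 at 0.171 FPKM, was an exception with 0.367 FPKM of DRP2.

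Nerve and Schwann markers were read beside ANGPTL7. NCAM1, a neural adhesion molecule, stood at 3.29 FPKM in female 2 and at 1.03 to 2.08 FPKM elsewhere, with an r of 0.60 that was 0.16 without female 2. CDH19, a cadherin of Schwann cells and their precursors, had an r of 0.30, and NGFR, the nerve growth factor receptor (22.7 FPKM), 0.08. Neither was highest in female 2, and none of these markers was at 0 in any library. The part of nerve content in the level of ANGPTL7 was not tested.

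**Figure D4:**
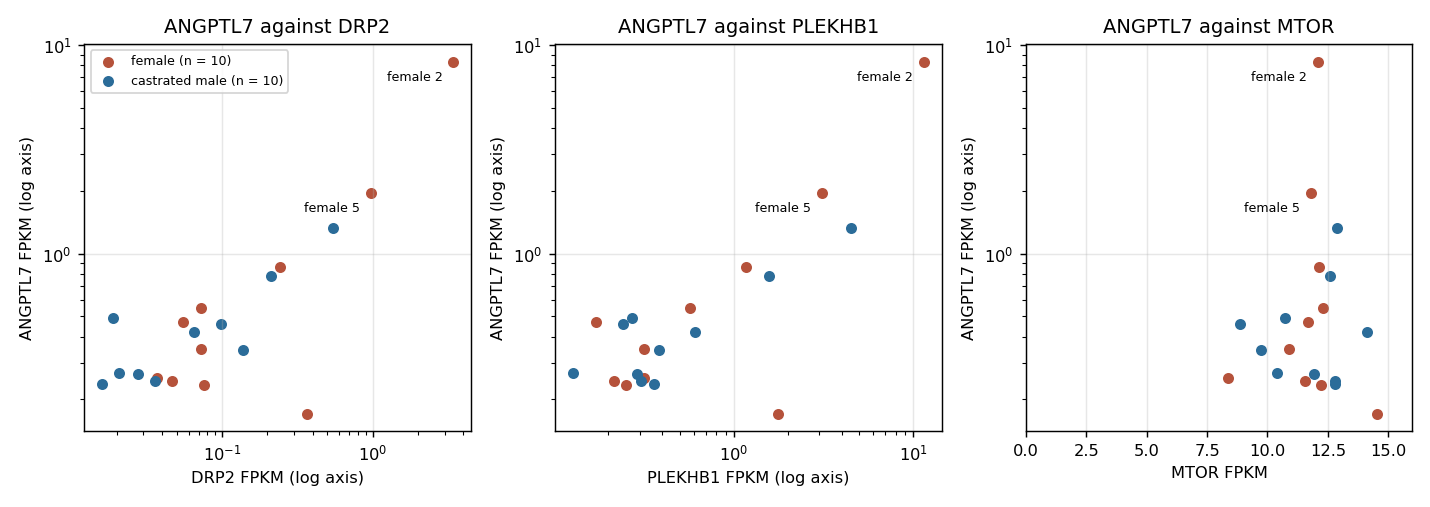
ANGPTL7 FPKM (log axis) in each of the 20 libraries against DRP2 and PLEKHB1 FPKM (log axes) and MTOR FPKM (linear axis), females in red and castrated males in blue. Female 2 is highest for ANGPTL7, DRP2 and PLEKHB1 and stands at 12.1 FPKM of MTOR, inside the range of the others.

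Markers of other tissues and cells were read beside COMP and CILP2. The 5 libraries with 1 to 6 CILP2 counts had summed skeletal muscle levels of 0.805 to 3.61 FPKM, against 0.499 to 4.46 FPKM in the others. Their mitochondrial share of counts was 8.49 to 19.2% against 10.01 to 26.3%, and their totals were 25754778 to 43806528 counts against 28009303 to 51248122. Summed macrophage markers, led by C1QA (96.7 FPKM), TYROBP (73.1 FPKM) and CD68 (63.3 FPKM), ran from 152 to 856 FPKM there, highest in castrated male 1, against 117 to 328 FPKM in the others. Each of these ranges overlapped, and their part in the levels of COMP and CILP2 was not tested.

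The r of total counts was 0.25 with COMP and 0.08 with CILP2, and that of the mitochondrial share 0.24 and 0.19. Of the other marker lists, skin epidermis had 2 of 10 genes with a locus, KRT10 (3.10 FPKM) and DSP (0.199 FPKM), and bone 2 of 8, DMP1 (2.80 FPKM) and PHEX (0.351 FPKM). The r of their summed levels with COMP and with CILP2 lay between -0.09 and 0.12. For smooth muscle, led by TAGLN (343 FPKM), it was 0.34 and 0.22, and for endothelium, led by PECAM1 (407 FPKM), 0.35 and 0.23. For T and NK cells, led by CD247 (39.3 FPKM), it was -0.13 and -0.23, and for adipocytes -0.10 and 0.01. Among the marker lists the values lowest with CILP2 over 20 libraries were those of macrophages (-0.07 with COMP and -0.37 with CILP2) and skeletal muscle (-0.28 and -0.30). Over the 15 libraries with at least 10 CILP2 counts, the median r of single markers differed for some lists. For smooth muscle it was -0.47 with COMP and -0.42 with CILP2, against 0.30 and 0.27 over 20 libraries. For T and NK cells it was 0.49 and 0.36 against 0.13 and 0.04, and for macrophages 0.44 and -0.08 against -0.01 and -0.29. Endothelium stood at -0.05 and -0.14 over the 15 libraries, and adipocytes at -0.08 and 0.17.

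Females and castrated males were compared for the 3 genes with edgeR across all loci, and none of the 3 passed. COMP had a mean of 47.4 ± 34.1 CPM (SD, n = 10) in the females against 24.4 ± 26.1 CPM (SD, n = 10) in the castrated males. The log2 difference, females minus castrated males, was 0.96 (SE 0.696, edgeR adjusted p = 1). CILP2 had means of 14.2 ± 11.2 against 7.36 ± 9.66 CPM, and its log2 difference was 0.95 (SE 0.903, edgeR adjusted p = 1). For both genes the difference was smaller than the spread between animals, and the groups overlapped.

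ANGPTL7 had means of 3.02 ± 5.39 against 1.20 ± 0.760 CPM, and its log2 difference was 1.33 (SE 0.598, edgeR p = 0.0368, adjusted p = 1). The medians, 1.05 and 0.884 CPM, were close. Without female 2 the difference was 0.17, and in DESeq2, which replaced the 649 counts of female 2 by 37 as an outlying count, it was 0.14. In edgeR 0 of 21587 loci passed an adjusted p of 0.05 (0%) and 935 had an unadjusted p under 0.05 (4.33%). DESeq2 called 6 loci, and limma on log2(FPKM + 0.1) and log2(FPKM + 1) called 11 and 9.

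Without the libraries numbered 10, COMP was the gene that shifted most. Its log2 difference was then 1.53 with an SE of 0.619 (edgeR p = 0.0224, adjusted p = 1), since the library labelled female 10 was the lowest of all 20 and the library labelled castrated male 10 the highest of its group. CILP2 stood at 1.31 with an SE of 0.917 and ANGPTL7 at 1.36 with an SE of 0.628, each with an adjusted p = 1 in edgeR, where 18 loci passed. Of the genes in the 8 pathway lists 0 passed in either direction in the fit of all 20 libraries. Cartilage matrix genes had a median log2 difference of 0.46 with 6 of 7 above 0, and tendon and ligament genes 0.14 with 11 of 13 above 0. Over all loci tested the median was 0.00, with 10979 of 21587 above 0. Several of the cartilage genes varied together, so they are not independent observations.

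Age at slaughter is given as a description, since the slope of ANGPTL7 was known when the genes were chosen. With sex in the model, log2 CPM of ANGPTL7 changed by -1.62 per 10 days with an SE of 0.408. The 3 highest libraries came from younger animals, female 2 and castrated male 9 at 235 days and female 5 at 237 days, while castrated male 2, the youngest at 233 days, stood at 1.07 CPM. Castrated male 5, at 249 days, went the other way with 2.06 CPM. Without female 2 the slope was -0.82, and without castrated male 5 it was -2.40.

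COMP and CILP2 had slopes of -0.26 (SE 0.776) and -0.25 (SE 1.04), smaller than their errors. The library labelled female 10, with the lowest COMP, and female 6, with 70.2 CPM, were both 250 days old. The median slope was -0.24 for cartilage matrix genes and -0.37 for tendon and ligament genes, with 0 of 7 and 2 of 13 above 0. The median over all loci tested was 0.00, with 10834 of 21587 above 0. Over those loci edgeR called 0 for age (0%), with 1189 at an unadjusted p under 0.05 (5.51%). Single weights are not given, so age and growth rate cannot be told apart.

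**Figure D5:**
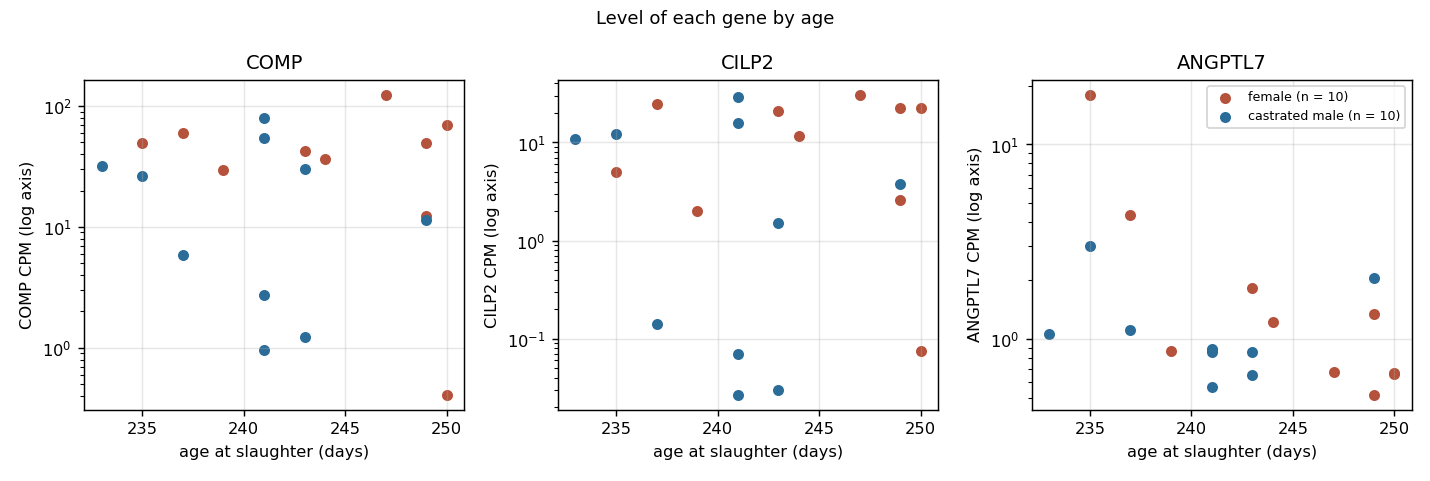
CPM of COMP, CILP2 and ANGPTL7 (log axes) against age at slaughter in days, 1 point per library, females in red and castrated males in blue. ANGPTL7 is highest in female 2 at 235 days and female 5 at 237 days, and COMP and CILP2 span their whole range among animals of 241 to 250 days.

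The isoform table resolved the 3 loci differently. Of the 2 COMP isoforms, both tied to the same reference transcript, 1 held 97.0% of the summed COMP FPKM and was listed at 0 in 2 libraries. CILP2 had 4 isoforms: the one tied to a reference transcript held 29.5% of the summed FPKM, and 3 without one held 42.8%, 19.2% and 8.52%. Shares moved from library to library, with the isoform of the largest summed share at 0.00633% of the CILP2 FPKM in female 3 and 99.996% in castrated male 5. ANGPTL7 had 2 isoforms, and both were highest in female 2: the reference isoform at 4.89 FPKM against at most 1.24 FPKM elsewhere, and the other at 3.46 FPKM against at most 0.729 FPKM.

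COMP and CILP2 are near each other in the genome. In the RefSeq annotation of Sscrofa11.1, used for gene order since the files were made on Sscrofa10.2, both are on chromosome 2 with 25 genes between them. Of these, 9 had a tested locus, with r from -0.23 to 0.42 with COMP and from -0.20 to 0.40 with CILP2 and a residual SD of at most 0.563, far under those of COMP and CILP2. Beside COMP, CRTC1 (2.51 ± 0.283 FPKM) had an r of 0.19, and beside CILP2 the locus holding LPAR2 and PBX4 (1.85 ± 0.736 FPKM) had an r of -0.22.

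ANGPTL7 lies on chromosome 6 inside MTOR, the gene of a growth-regulating kinase. MTOR averaged 11.7 ± 1.55 FPKM (SD, n = 20) and stood at 12.1 FPKM in female 2, with an r of 0.05 with ANGPTL7. The strand setting of the counting is not given in the sources used here, so reads of ANGPTL7 and of MTOR cannot be told apart where they overlap, which bears most on the libraries with 15 to 77 counts. EXOSC10, a subunit of the RNA exosome beside it, averaged 11.9 ± 1.91 FPKM with an r of 0.29.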

How the data were processed

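RNA from 20 backfat samples was selected with oligo-dT and sequenced as paired 100 bp reads, per the labels' protocols. Per the submitters' processing notes, the tools were Cufflinks 2.1.1, Bowtie2 2.1.0.0, TopHat2 2.0.8 and DESeq2, with the build Sscrofa10.2. How reads were counted (tool, annotation, strand, reads matching several places) is not given in the sources used here. In their tables the authors deposited whole-number read counts for 23483 Cufflinks loci, FPKM of those loci, and isoform FPKM (63418 isoforms). Of the loci, 12707 carried an Ensembl identifier and 9360 matched a symbol in a table of gene names, and no sequences are shown. No 2 libraries had identical counts.

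Counts were tested with edgeR 4.0.16 (R 4.3.3) quasi-likelihood fits with TMM factors, filterByExpr by group and Benjamini-Hochberg adjustment over 21587 loci at 0.05. CPM include the TMM factors, and a prior count of 2 was added before taking log2. Correlations used sex means removed. Alternatives were DESeq2 1.42.0, other filters and scalings, a prior count of 0.5, limma 3.58.1 on log2(FPKM + 0.1) and log2(FPKM + 1), fits without single libraries and, added after the data were seen, the 15 libraries with at least 10 CILP2 counts. Fits were tested on simulated data. Summaries used pandas 2.3.3, numpy 2.4.6 and scipy 1.17.1 under Python 3.11.15, and figures matplotlib 3.10.9.

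The 3 genes and the 8 pathway and 9 marker lists were chosen with earlier results of these data known. Genes named were, per gene studied, the 6 of highest and 3 of lowest r, per pathway list those passing or else up to 4 of highest FPKM and 2 of highest r, per marker list up to 3 of highest FPKM, and the genomic neighbours. Values of a few listed genes are not reported here. A few others (such as CILP, the regulators of cartilage, female 2's counts and the lists' exceptions) were named after their values were seen. Nothing in the labels names litters or extraction days. The p-values take the animals as independent. They weigh a difference or slope against the spread between animals, and the part of litter or extraction day in that spread is unknown.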

Additional observations from a re-analysis of the deposited data

Results flagged for a closer look

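ANGPTL7 in female 2, at 18.01 CPM, stood far from the other 9 females: its gap to the next library, divided by the range of the group, was 0.780, above Dixon's 95% critical value for 10 samples. On the log2 scale the same measure was 0.408, below that value. It was the sole library singled out among the 6 groups examined (3 genes in 2 sexes). Chance singles out about 1 in 20 groups, and it could do so in any of the 6. ANGPTL7 was also chosen with its age slope known, which was -1.62, and -0.82 without female 2. The measure therefore describes this library and is no test of chance. Female 2 was also the highest library for DRP2, with 961 counts against 4 to 275 in the others.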

How the results depend on the processing

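Of 339 values under alternative settings 319 stayed within the spread, the threshold or 1.5 times the count of the value reported, and 20 moved. Reversals were marked for the sex differences of the 3 genes alone, where 0 reversed or changed sides of a threshold. The sex difference called 0 loci in edgeR, 6 in DESeq2, 11 and 9 with limma on log2(FPKM + 0.1) and log2(FPKM + 1), and 18 without both libraries numbered 10. Leaving out 1 library gave 0 to 13 loci, with 13 without the library labelled female 10 and 7 without the library labelled castrated male 10. The age slope was -1.22 for COMP on log2(FPKM + 0.1) and -0.82 for ANGPTL7 on log2(FPKM + 1), where a pseudocount above most of its values compresses the differences. The residual SD of COMP was 1.66 on log2(FPKM + 1), 1.64 without the libraries numbered 10 and 0.933 over the 15 libraries with at least 10 CILP2 counts. That of CILP2 was 2.24 and 1.15 on log2(FPKM + 0.1) and log2(FPKM + 1) and 1.51 over those 15 libraries, and that of ANGPTL7 was 0.685 on log2(FPKM + 1). The correlation of COMP and CILP2 was 0.701 over the 15 libraries. The cause of the other shifts was not tested. Leaving out 1 library at a time, the sex difference ran from 0.68 to 1.38 for COMP, 0.75 to 1.53 for CILP2 and 0.17 to 1.59 for ANGPTL7, and the age slope from -0.45 to -0.05, -0.58 to -0.00 and -2.40 to -0.82. The residual SD ran from 1.75 to 2.32, 2.70 to 3.08 and 0.814 to 1.23, and r from 0.909 to 0.932 for COMP with CILP2, 0.11 to 0.30 for COMP with ANGPTL7 and 0.11 to 0.35 for CILP2 with ANGPTL7. Without sex in the model the age slopes of COMP and CILP2 were 0.17 and 0.27, the other sign and within their errors. Over the 15 libraries the r of ANGPTL7 with COMP and CILP2 also had the other sign, at -0.07 and -0.04. Depth limits CILP2 in the 5 libraries with 1 to 6 counts. No paired analysis was possible because the library numbers follow deposit order and pair no animals.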
